A study of Mus musculus with 6 samples.

Results

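The G1 cyclins, cyclin-dependent kinases (CDKs) and CDK inhibitors were followed through 10 genes: the kinases Cdk6, Cdk4 and Cdk2, the cyclins Ccnd1, Ccnd2, Ccnd3 and Ccne1, and the inhibitors Cdkn1b, Cdkn1c and Cdkn2c. Every probe set whose gene symbol in the platform annotation was one of these names was taken, which gave 27 of the 45037 probe sets that are not controls. Of these, 25 were bright enough to be tested. Expression had been measured in primary bone marrow from adult female mice of 6 to 16 weeks, depleted of cells carrying mature blood lineage markers to enrich stem and progenitor cells. One group was the strain B.D(Chr5), whose genetic background is given as B.D, and the other was C57B/L6, with 3 biological replicates and 3 Affymetrix arrays each. The strains are the 1 difference that the labels give between the groups. The labels give neither the bounds of the chromosome 5 segment nor how many mice made up a replicate. Each p-value below sets a difference against variation of these arrays within a strain only. That variation is estimated with help from other probe sets of similar signal.

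In G1, the phase before DNA synthesis, D-type cyclins bind Cdk4 and Cdk6, and the kinases phosphorylate the retinoblastoma protein so that E2F transcription factors are released. Cyclin E, itself an E2F target, then activates Cdk2 for entry into S phase. Inhibitors of the INK4 class, such as p18 from Cdkn2c, bind Cdk4 and Cdk6, while those of the Cip/Kip class, p27 from Cdkn1b and p57 from Cdkn1c, bind cyclin-CDK complexes more broadly. In bone marrow, p57 and p27 are known for keeping stem cells quiescent, p18 for limiting their self-renewal divisions, and Cdk6 for their exit from quiescence.

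In the RefSeq annotation of GRCm38.p6, Cdk6 lies at the proximal end of chromosome 5, at chr5:3341004-3531008, and is the 1 gene of the 10 on the chromosome for which the strain is named. Cdk4 and Cdk2 lie on chromosome 10, Ccnd1, Ccne1 and Cdkn1c on chromosome 7, Ccnd2 and Cdkn1b on chromosome 6, Ccnd3 on chromosome 17 and Cdkn2c on chromosome 4. The bases upstream of the start are shown for the 3 kinases, since they are the paralogues compared first and their windows hold different motifs. Each is the 250 bases before a RefSeq start, read 5′ to 3′ on the gene's strand, from the C57BL/6J reference. The window of Cdk6 is chr5:3343643-3343892 on the plus strand and lies inside the annotated span of the gene, that of Cdk4 is chr10:127063285-127063534 on the plus strand, and that of Cdk2 is chr10:128705052-128705301 on the minus strand. Capitals mark CACGTG (the E-box bound by Myc and Max), TTCCCGC, TTTCGCGC or TTTGGCGC (E2F-type), GGGCGG (the GC box) and TATAAA (the TATA box), on either strand.
Cdk6: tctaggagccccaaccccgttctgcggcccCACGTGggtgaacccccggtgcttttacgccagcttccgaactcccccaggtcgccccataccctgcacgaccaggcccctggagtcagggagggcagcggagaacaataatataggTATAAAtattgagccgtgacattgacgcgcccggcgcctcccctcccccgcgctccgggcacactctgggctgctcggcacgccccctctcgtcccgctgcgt
Cdk4: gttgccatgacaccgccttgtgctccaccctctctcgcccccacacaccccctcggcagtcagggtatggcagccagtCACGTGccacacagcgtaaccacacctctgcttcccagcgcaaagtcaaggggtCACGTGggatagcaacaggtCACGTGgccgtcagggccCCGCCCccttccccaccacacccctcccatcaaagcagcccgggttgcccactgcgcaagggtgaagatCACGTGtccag
Cdk2: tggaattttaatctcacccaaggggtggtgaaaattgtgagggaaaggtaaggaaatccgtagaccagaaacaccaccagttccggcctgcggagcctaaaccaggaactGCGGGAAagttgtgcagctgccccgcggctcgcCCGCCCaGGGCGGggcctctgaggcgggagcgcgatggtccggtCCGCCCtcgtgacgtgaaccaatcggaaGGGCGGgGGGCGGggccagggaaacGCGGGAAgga
The Cdk4 window held 4 E-boxes and 1 GC box, the Cdk6 window 1 E-box and 1 TATAAA, and the Cdk2 window 2 E2F-type matches and 5 GC boxes. Over 32851 RefSeq windows of the same length, 6.02% held CACGTG, 4.42% an E2F-type match, 32.7% a GC box and 12.4% TATAAA. Of the other members with a window, Ccne1 held 4 GC boxes and Cdkn1b held 1, while the 2 windows of Ccnd3 held 2 and 1. The window of Cdkn2c at chr4:109666757-109667006 held 3 GC boxes and 1 E2F-type match, and its other window, chr4:109665373-109665622, held none of these motifs. No window was read for Ccnd1, Ccnd2 and Cdkn1c. These matches describe letters in the reference and are not binding sites shown by the arrays.

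The deposited signals are MAS5 intensities on a linear scale, scaled per array so that the mean without the top and bottom 2% is 500. The background of an array was set at the 95th percentile of its 27 bacterial controls, which lay between 23.4 and 38.0 in B.D(Chr5) and between 21.8 and 24.4 in C57B/L6. Pearson's r over the tested probe sets was 0.976 to 0.985 within B.D(Chr5), 0.985 within C57B/L6 and 0.973 to 0.987 across the strains. A signal depends on the probes as well as on the RNA, so signals of different probe sets were not ranked against each other. Differences are B.D(Chr5) minus C57B/L6 on the log2(signal + 16) scale, which understates changes of dim probe sets. Where a gene had several probe sets, the brightest over the 6 arrays stands for it.

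All 10 genes had a probe set above the background on every array of both strains, with Cdkn1c near it. None of their tested probe sets passed the test of a strain difference. Of the 27 probe sets, 26 lay above the background on all 6 arrays, the exception being a Cdk2 probe set. This is a low threshold, since 63.3% to 71.2% of all probe sets that are not controls lay above it on single arrays. In limma, 0 of 25 tested probe sets passed an adjusted p of 0.05, against 0.182% of all 22518 tested. At an unadjusted p under 0.05 the count was 0 of 25, against 4.73% of all tested. The log2 differences had a median of -0.020 and a median size of 0.090, against 0.00036 and 0.095 over all tested probe sets. They ran from -0.30 to 0.28, with 10 positive and 15 negative. The 3 arrays of one strain all lay above the 3 of the other for 1 of 25, against 9.38% of all tested. In bulk RNA, fewer cells that carry a transcript and less of it per cell cannot be told apart.

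**Figure D1:**
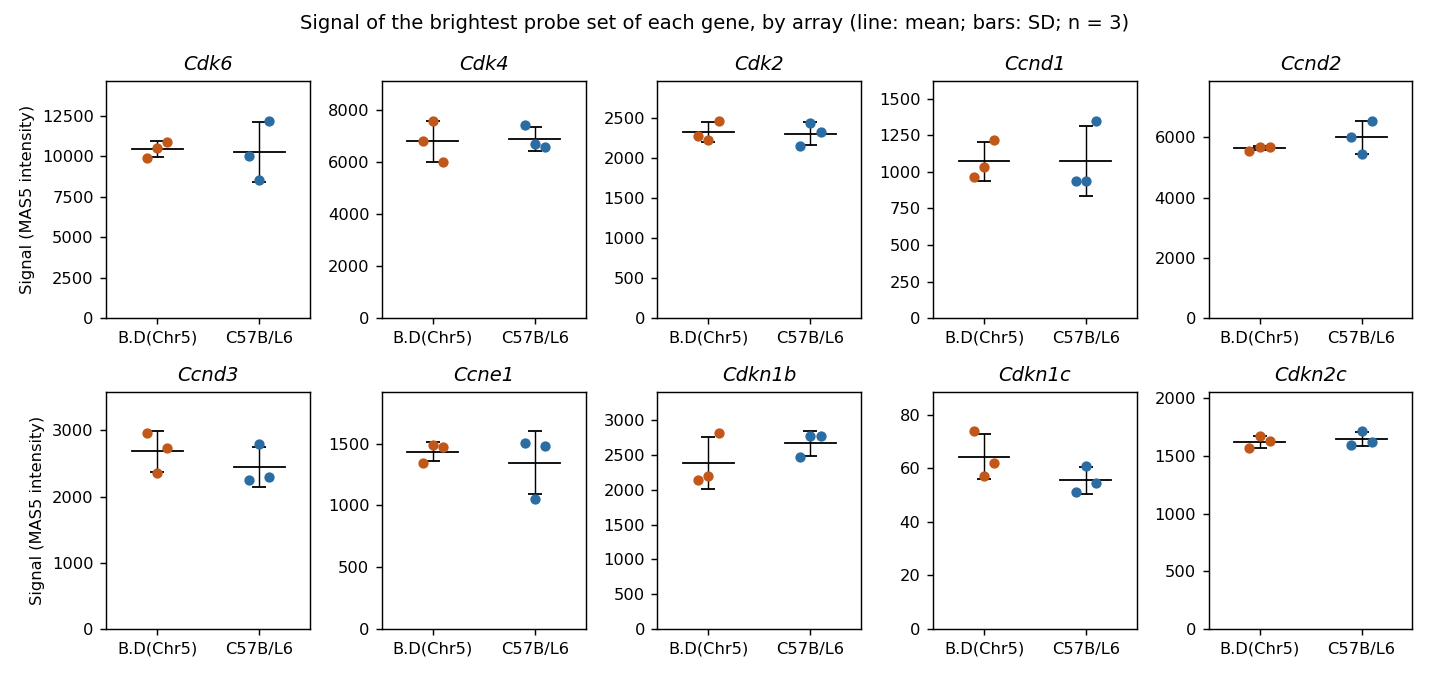
Signal (MAS5 intensity, linear axis from 0) of the brightest probe set of each of the 10 genes on the 6 arrays, with B.D(Chr5) on the left and C57B/L6 on the right of each panel; points are arrays, lines are means and bars are SDs (n = 3). In all 10 panels the points of the strains overlap, as for Cdk6 at 10441 ± 489 in B.D(Chr5) and 10250.1 ± 1858 in C57B/L6 (SD, n = 3 each).

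Cdk6 had strong signals in both strains. Its brightest probe set, 1455287_at, read 9925, 10499.7 and 10898 in B.D(Chr5), against 10019.7, 8518 and 12212 in C57B/L6. The lowest and the highest of the 6 values were both C57B/L6 arrays, and the B.D(Chr5) values lay between them. The means were 10441 ± 489 in B.D(Chr5) and 10250.1 ± 1858 in C57B/L6 (SD, n = 3 each), a log2 difference of 0.041 (SE 0.12, limma adjusted p = 1.00). The 95% interval of -0.22 to 0.30 spans at most a 1.23-fold difference in either direction. A second probe set of similar signal, 1435338_at, read 8697, 9982 and 8848 in B.D(Chr5), against 9826, 8745 and 10943 in C57B/L6, with a log2 difference of -0.10 (95% interval -0.31 to 0.11). The strains overlapped again, and the highest value was once more C57B/L6 replicate 3. The dimmest, 1460291_at, differed by -0.020 (95% interval -0.21 to 0.17), with means of 1953 ± 81.3 in B.D(Chr5) and 1981 ± 113 in C57B/L6 (SD, n = 3 each).

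Cdk4, the paralogue of Cdk6 that also pairs with D-type cyclins, was similarly even. Its brightest probe set, 1422441_x_at, read 6793, 7596 and 6001 in B.D(Chr5), against 7417, 6676 and 6576 in C57B/L6. Both the highest and the lowest array belonged to B.D(Chr5), so the groups overlapped fully. The log2 difference was -0.024 (SE 0.10, limma adjusted p = 1.00). Names ending in _x_at mark probe sets with probes that can match other transcripts, which makes the assignment less certain. The probe set 1422440_at, with no such suffix, read 4487, 4456 and 4287 in B.D(Chr5), against 4239.8, 4333 and 4343 in C57B/L6. Its log2 difference of 0.034 had the narrowest interval among the tested probe sets of the 10 genes, -0.12 to 0.19, at most 1.14-fold. For 1422439_a_at the difference was -0.032.

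Cdk2, the kinase partner of cyclin E, was read by 1 informative probe set. That probe set, 1416873_a_at, gave 2285, 2226 and 2473 in B.D(Chr5), against 2152, 2442 and 2332 in C57B/L6. The 2 groups covered nearly the same range. The log2 difference was 0.012 (SE 0.086, 95% interval -0.18 to 0.20, limma adjusted p = 1.00). The other, 1447617_at, lay at 15.2, 19.5 and 5.19 in B.D(Chr5) and 1.08, 4.62 and 9.28 in C57B/L6, at or below the background of every array, so no level can be read from it and it was not tested.

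All 3 D-type cyclins, the growth factor-responsive partners of Cdk4 and Cdk6, were above background on all arrays. Ccnd1 read 964, 1029.7 and 1220.0 in B.D(Chr5), against 936, 940.3 and 1350.4 in C57B/L6 on its brightest probe set, 1448698_at. Replicate 3 was the highest of its strain in both, and the groups overlapped. The log2 difference was 0.0086 (SE 0.16, 95% interval -0.34 to 0.36, limma adjusted p = 1.00). The other 2 Ccnd1 probe sets differed by -0.11 and -0.0066.

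Ccnd2 had 7 probe sets, the most of the 10 genes. The brightest, 1416122_at, read 5565, 5688 and 5682 in B.D(Chr5), against 6022, 5437 and 6553 in C57B/L6. The B.D(Chr5) arrays lay close together within the wider C57B/L6 range. The log2 difference was -0.085 (SE 0.081, 95% interval -0.27 to 0.10, limma adjusted p = 1.00). The next 5 in order of signal had differences from -0.21 to -0.058, so 6 of 7 were negative and none passed. The dimmest, 1416124_at, read 428, 337 and 398 in B.D(Chr5), against 299, 329 and 317 in C57B/L6. This was the 1 probe set of the 25 whose groups did not overlap, and its sign was opposite to the other 6, with a log2 difference of 0.28 and an SE of 0.14 (95% interval -0.024 to 0.59, limma adjusted p = 1.00).

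Ccnd3 read 2958, 2355 and 2736 in B.D(Chr5), against 2256, 2793 and 2301 in C57B/L6 on 1415907_at. The highest array was from B.D(Chr5) and the lowest from C57B/L6, with overlap between the groups. The log2 difference was 0.13 (SE 0.11, 95% interval -0.13 to 0.39, limma adjusted p = 1.00). Its dimmer probe sets, 1438805_at and 1444323_at, differed by -0.30 and 0.13, with mean signals of 237 and 80.8 in B.D(Chr5), against 300.2 and 73.2 in C57B/L6.

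Ccne1, which encodes the cyclin that activates Cdk2, read 1346, 1489 and 1469.9 in B.D(Chr5), against 1506, 1049 and 1477 in C57B/L6 on 1441910_x_at. One C57B/L6 array was the lowest of all and another the highest. The log2 difference was 0.11 (SE 0.14, 95% interval -0.20 to 0.42, limma adjusted p = 1.00). The second probe set, 1416492_at, read 716, 893 and 731 in B.D(Chr5), against 794, 649 and 615 in C57B/L6, a log2 difference of 0.18 (95% interval -0.12 to 0.49). The groups overlapped there too.

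Among the inhibitors, Cdkn1b, encoding p27, read 2137, 2198 and 2813 in B.D(Chr5), against 2463, 2767 and 2765 in C57B/L6 on 1434045_at. A pair of B.D(Chr5) arrays gave the lowest values and the other B.D(Chr5) array the highest. The log2 difference of -0.17 was the largest in size among the brightest tested probe sets (SE 0.11, 95% interval -0.43 to 0.087, limma adjusted p = 1.00). The second Cdkn1b probe set, 1419497_at, had the opposite sign, at 0.24, and was much dimmer, with means of 95.7 ± 19.9 in B.D(Chr5) and 79.4 ± 23.1 in C57B/L6 (SD, n = 3 each). Cdkn2c, encoding p18, read 1568, 1671 and 1632 in B.D(Chr5), against 1598, 1715 and 1625 in C57B/L6. The groups overlapped throughout, with a log2 difference of -0.019 and an SE of 0.082 (95% interval -0.20 to 0.17, limma adjusted p = 1.00).

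Cdkn1c, encoding p57, lay near the bacterial controls, though above them on all 6 arrays. Its single probe set, 1417649_at, read 73.8, 57.2 and 62.0 in B.D(Chr5), against 51.0, 60.9 and 54.5 in C57B/L6. It fell under the filter on low values and was not tested with the others. With all 45037 probe sets tested, its log2 difference was 0.17 (SE 0.26, 95% interval -0.42 to 0.76, limma adjusted p = 1.00), and the groups overlapped.

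**Figure D2:**
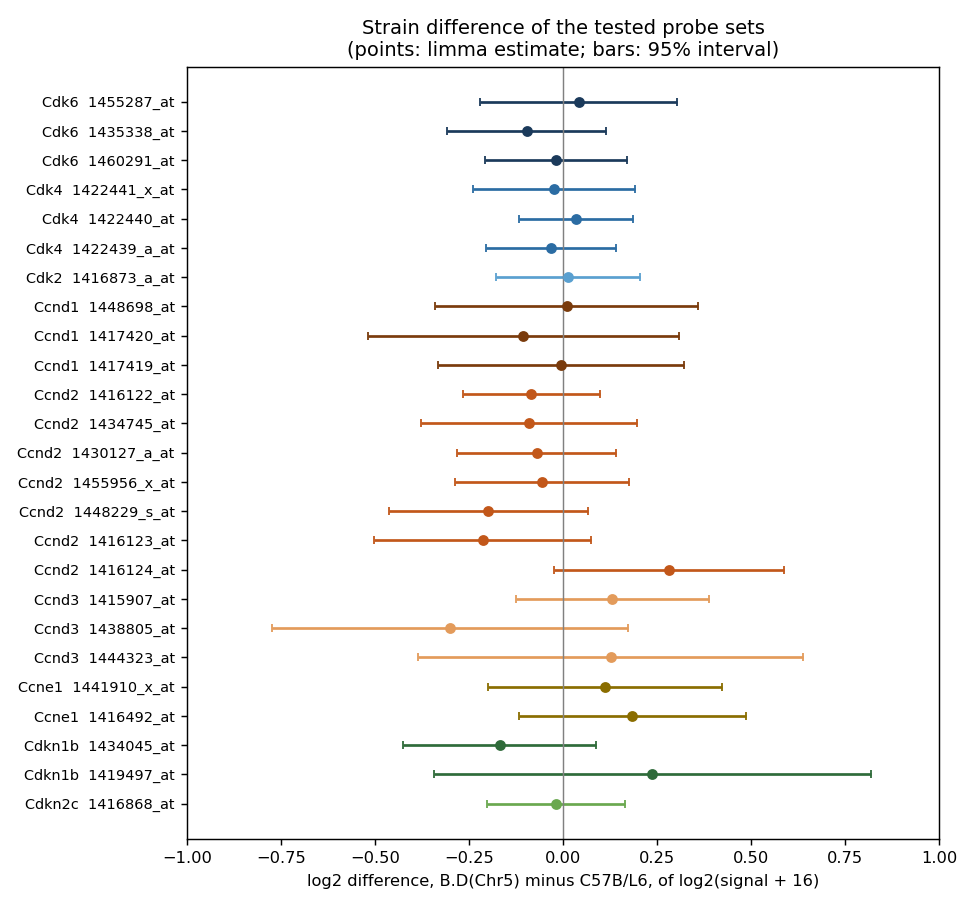
log2 difference (B.D(Chr5) minus C57B/L6, of log2(signal + 16)) of the 25 tested probe sets, grouped by gene; points are limma estimates and bars 95% intervals. Every interval includes 0, and the point farthest to the right is Ccnd2 1416124_at at 0.28.

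Probe sets of one gene moved together across the arrays for some genes and not for others. For Cdk6, Pearson's r over the 6 arrays was 0.93 between 1435338_at and 1460291_at and 0.71 and 0.71 for the pairs with 1455287_at. For Cdk4, 1422441_x_at and 1422439_a_at had an r of 0.98, while 1422440_at had 0.25 and 0.10 with them. These values describe 6 arrays of 2 strains that share array-wide variation.

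For Ccnd2 the 15 pairs among the 6 brighter probe sets had r between 0.28 and 0.97. All 6 pairs with 1416124_at were negative, between -0.87 and -0.23. Mean signals of the 7 probe sets spanned 351 to 5825, a 16.6-fold range for 1 gene, and those of Ccnd3 spanned 33.3-fold. C57B/L6 replicate 3 was the highest of the 6 arrays for 9 of the 25 tested probe sets, including 4 of 7 for Ccnd2, while each other array was the highest for 2 to 4.

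**Figure D3:**
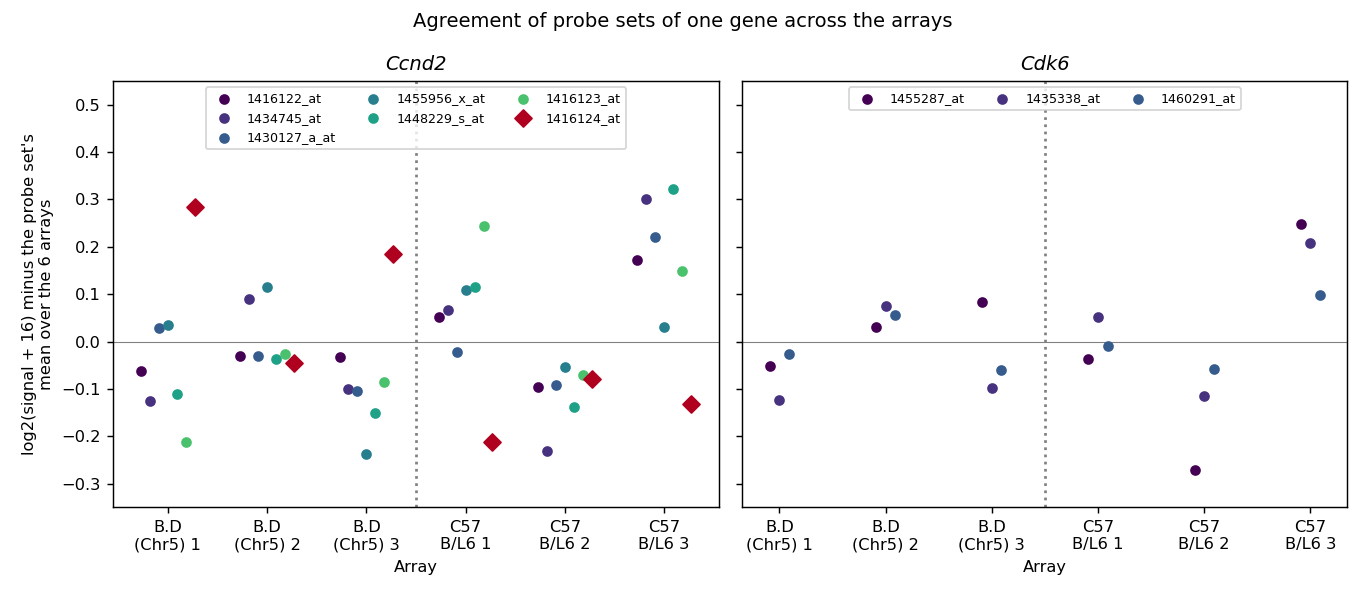
log2(signal + 16) of each tested probe set of Ccnd2 (left, 7 probe sets) and Cdk6 (right, 3 probe sets) minus that probe set's mean over the 6 arrays; B.D(Chr5) arrays are left of the dotted line and C57B/L6 arrays right of it. The red diamonds, Ccnd2 1416124_at, lie above the other Ccnd2 points in B.D(Chr5) replicates 1 and 3 and below them in C57B/L6 replicates 1 and 3.

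The rest of the G1 to S pathway was given by a list of 30 other genes, each by its brightest probe set. Of these, 27 were tested and 0 passed in limma, against 0.182% of all tested probe sets, and 0 had an unadjusted p under 0.05, against 4.73%. Of the differences 15 were positive and 12 negative, with a median of 0.0084, against 0.00036 over all tested probe sets. With 1 array left out that median ran from -0.016 without B.D(Chr5) replicate 2 to 0.044 without C57B/L6 replicate 1. The smallest p-values belonged to Cdkn1a, encoding the p53-induced inhibitor p21, and to the E2F gene E2f2. Cdkn1a read 328, 261 and 361 in B.D(Chr5), against 225, 272 and 241 in C57B/L6. The groups overlapped by 1 array, and the log2 difference was 0.34 (SE 0.16, 95% interval -0.027 to 0.70, limma adjusted p = 1.00). For E2f2 the means were 656 ± 107 in B.D(Chr5) and 563 ± 31.7 in C57B/L6 (SD, n = 3 each), a log2 difference of 0.21.

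The INK4 genes Cdkn2a and Cdkn2b and the cyclin gene Ccna1 were the 3 that were not tested, and none of them was above background on all arrays. Cdkn2a read 4.05, 6.48 and 10.6 in B.D(Chr5), against 37.7, 5.42 and 6.42 in C57B/L6. Cdkn2d, the other INK4 gene, was detected, with means of 1161 ± 183 in B.D(Chr5) and 1165 ± 162 in C57B/L6 (SD, n = 3 each).

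Of a list of 22 E2F target and S phase genes, 20 had a probe set with 1 gene symbol and all of these were tested. In limma 0 of 20 passed, against 0.182% of all tested probe sets, and 0 had an unadjusted p under 0.05, against 4.73%. Of the differences 13 were positive and 7 negative, with a median of 0.024. With 1 array left out the median ran from -0.014 without C57B/L6 replicate 3 to 0.053 without C57B/L6 replicate 1. The differences ran from -0.056 to 0.17, and the summed signal was 131442 to 138576 in B.D(Chr5), against 127863 to 136003 in C57B/L6. Bub1, a mitotic checkpoint kinase gene, had the smallest p, with means of 2266 ± 106 in B.D(Chr5) and 2014 ± 29.9 in C57B/L6 (SD, n = 3 each) and a log2 difference of 0.17 (limma adjusted p = 1.00). Mki67, the proliferation marker, followed with means of 8147 ± 887 in B.D(Chr5) and 7534 ± 174 in C57B/L6 (SD, n = 3 each) and a log2 difference of 0.11.

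Markers of blood cell types were set beside the G1 genes. The lists were chosen with earlier results of these data known, so their counts are a description only. All 8 measured markers of stem and multipotent progenitors were above background on all arrays. So were all measured markers of every other cell type except 2 of 6 for stroma and endothelium. On single arrays 63.3% to 71.2% of all probe sets that are not controls lay above it, so this does not show that a cell type was present. Markers of granulocyte-monocyte progenitors had a summed signal of 63742 to 90757 in B.D(Chr5), against 54159 to 60565 in C57B/L6. For 5 of these 6 genes the B.D(Chr5) arrays all lay above the C57B/L6 arrays, where 9.38% of all tested probe sets were separated in either direction. In limma 0 of 6 passed, against 0.182%, and 5 had an unadjusted p under 0.05, against 4.73%. The median log2 difference was 0.51. The stem and multipotent progenitor markers had a summed signal of 12011 to 14019.7 in B.D(Chr5), against 13191 to 15501 in C57B/L6 and a median log2 difference of -0.22, with 7 of 8 negative. The exception was the 1 called gene of the marker lists, Slamf1, which encodes the cell surface receptor CD150. It lies on chromosome 1 and is singled out here after its values were seen. Its brightest probe set read 650.2, 841 and 596 in B.D(Chr5), against 266, 364 and 282 in C57B/L6. The log2 difference was 1.15 (SE 0.17, limma adjusted p = 0.0358). The groups did not overlap. The call held in 1 of 6 fits with an array left out, the one without B.D(Chr5) replicate 3, and the adjusted p in limma over these fits ran from 0.0348 to 0.208 with differences of 1.01 to 1.28. With all 6 arrays it was 0.0751 with no filter on dim probe sets and 0.168 with eBayes without trend. In the other alternatives with all 6 arrays it ran from 0.0036 with median centring to 0.0457 without _x_at and _s_at probe sets. Of the 8 stem markers 1 passed in limma, against 0.182%, and 2 were separated, against 9.38%. The same 2, Slamf1 and Meis1, had an unadjusted p under 0.05, against 4.73%. Meis1 was lower, at 840, 892 and 749 in B.D(Chr5), against 946, 1117 and 1264 in C57B/L6. Its log2 difference was -0.41 (limma adjusted p = 0.753).

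The medians of the granulocyte-monocyte and stem lists ran from 0.41 to 0.65 and from -0.33 to -0.18 when single arrays were left out. Of the other marker lists, the median was 0.45 for maturing neutrophils (0.27 to 0.56 with an array left out), 0.82 for B lymphoid cells (0.35 to 0.97), 0.82 for mast cells and basophils (0.46 to 1.28) and 0.97 for stroma and endothelium (0.55 to 1.36). It was 0.23 for monocytes and macrophages (0.074 to 0.48), -0.24 for T and NK cells (-0.45 to 0.00052), -0.14 for megakaryocytes (-0.29 to 0.017) and -0.018 for erythroid cells (-0.15 to 0.079). Leaving out B.D(Chr5) replicate 2 gave one end of the range for each of these lists except stroma and endothelium. The other end came without B.D(Chr5) replicate 1 for the stem, granulocyte-monocyte, T and NK, and mast cell lists and without B.D(Chr5) replicate 3 for neutrophils, megakaryocytes, B lymphoid cells and monocytes. It came without C57B/L6 replicate 1 for erythroid cells, and the stromal range ran from C57B/L6 replicate 2 left out to C57B/L6 replicate 1 left out. In limma 0 genes of these other lists passed, against 0.182% of all tested probe sets. Arrays were separated for 4 of 5 neutrophil, 2 of 5 B lymphoid and 1 of 4 mast cell markers, all higher in B.D(Chr5). So were 1 of 5 stromal and 1 of 4 erythroid markers, in the same direction. For T and NK cells 2 of 5 markers were separated, both lower in B.D(Chr5). For megakaryocytes and for monocytes the count was 0 of 5. Over all tested probe sets 9.38% were separated in either direction. An unadjusted p under 0.05 was reached by 3 of 5 neutrophil, 3 of 5 B lymphoid, 3 of 4 mast cell and 3 of 5 stromal markers. It was reached by 1 of 4 erythroid, 2 of 5 T and NK and 0 of 5 megakaryocyte and monocyte markers. The share over all tested probe sets was 4.73%.

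The 9 tested G1 genes had a median of 0.0086 on their brightest probe sets and lay between -0.17 and 0.13. The part of these cell types in the G1 levels was not tested.

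**Figure D4:**
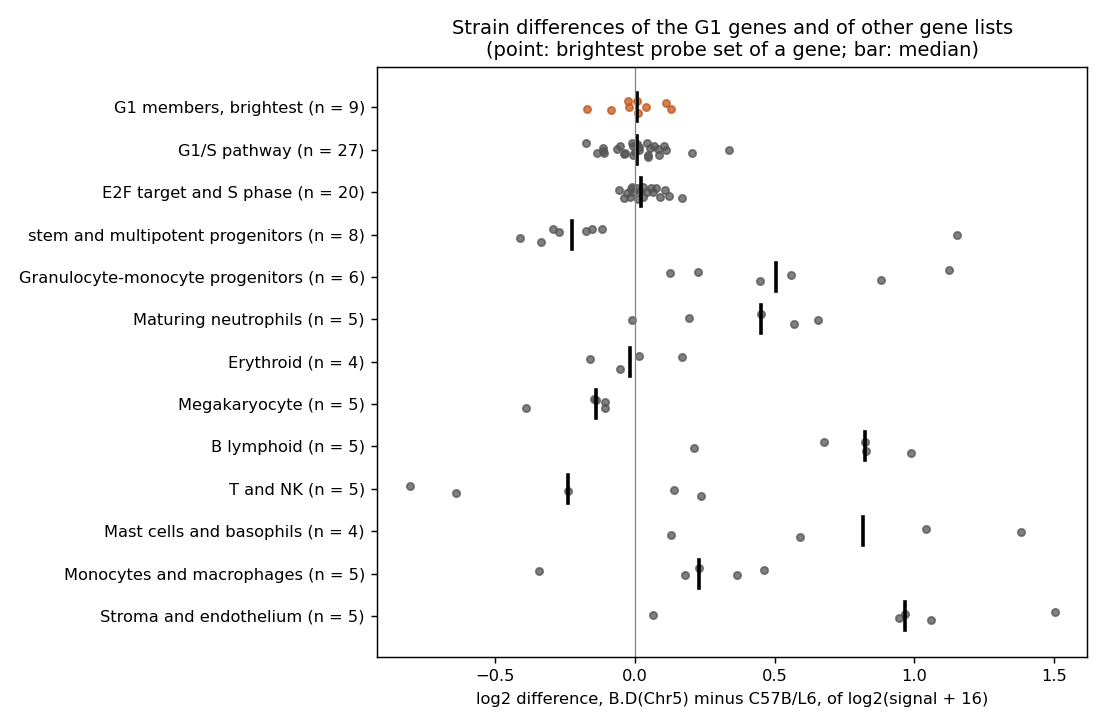
log2 difference (B.D(Chr5) minus C57B/L6, of log2(signal + 16)) of the brightest probe set of each tested gene, for the G1 cyclins, CDKs and inhibitors (top row, orange) and for the other lists; bars are medians. The G1 genes lie between -0.17 and 0.13, while the granulocyte-monocyte progenitor markers have a median of 0.51.

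Cdk6 was the first of the 699 tested genes along chromosome 5, so neighbours could be read on its distal side only. The next 5 tested genes were Fam133b, Rbm48, Gatad1, Ankib1 and Krit1, and none of their probe sets passed in limma. Fam133b, the immediate neighbour, had means of 1862 ± 116 in B.D(Chr5) and 1959.5 ± 72.3 in C57B/L6 (SD, n = 3 each) and a log2 difference of -0.074 (95% interval -0.26 to 0.12). Rbm48 differed by 0.044, Gatad1 by -0.074, Ankib1 by -0.032 and Krit1, the gene of a junction protein, by -0.070.

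**Figure D5:**
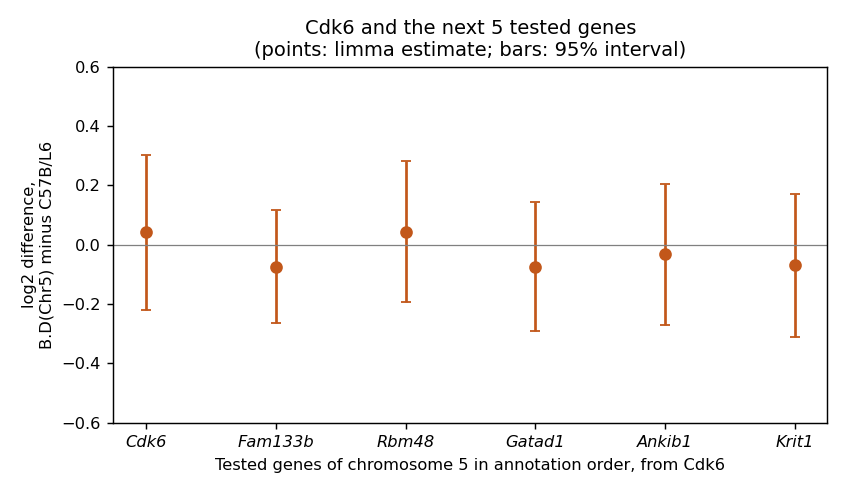
log2 difference (B.D(Chr5) minus C57B/L6, of log2(signal + 16)) of Cdk6 and the next 5 tested genes in annotation order on chromosome 5, brightest probe set each; points are limma estimates and bars 95% intervals. All 6 intervals include 0, from Cdk6 at 0.041 to Krit1 at -0.070.

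The genes whose level followed the Cdk6 probe set 1455287_at most closely over the 6 arrays were Mtr, Tcof1, Itpkb, Tbc1d20 and Bahd1. Pearson's r was 0.992, 0.991, 0.990, 0.987 and 0.985. The other Cdk6 probe sets, 1435338_at and 1460291_at, had an r of only 0.71 and 0.71 with it. The likeness of the 5 genes to those probe sets was not measured. Over these 6 arrays, 198 of 10742 genes had an r above 0.9 with 1455287_at and 75 had an r below -0.9. Like Cdk6 1455287_at, all 5 were lowest in C57B/L6 replicate 2 and highest in C57B/L6 replicate 3, as in Mtr with 1369, 1436 and 1517 in B.D(Chr5), against 1398, 1244 and 1656 in C57B/L6.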

How the data were processed

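RNA of 6 samples was measured on 1-colour Affymetrix arrays, 1 array per sample. The authors deposited 1 linear intensity per probe set and array. Per the submitters' processing notes it comes from MAS5, whose version is not given in the sources used here, nor is a genome build. That each array was scaled to 500, as its mean without the outer 2%, was read from the values, and 0 pairs of arrays were identical. Strain and replicate came from the sample titles. Symbols were updated through Entrez identifiers to RefSeq (GRCm38.p6), which held 34741 of 34945 probe sets with 1 symbol; 932 probe sets had several symbols and 9160 none, and none of these was named.

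The 64 controls were left out, intensities were turned into log2(signal + 16), and the upper 50% of probe sets by mean signal were fitted in limma 3.58.1 (R 4.3.3; lmFit and eBayes with trend) with strain as the only term. Tests were two-sided, with Benjamini-Hochberg adjustment over all 22518 probe sets; 95% intervals are not adjusted. Intensities give no read depth, and 3 arrays per strain limit the precision. The fit was tested on simulated data for bias, interval coverage and false calls, a criterion set after a first one, on the share of changes recovered, was not met. It missed most of the changes put in at the smallest size and some at each larger size. The differences measured for the tested member probe sets were all below that smallest size. A count of 0 therefore does not show that the strains are alike. Alternatives were pseudocounts of 1 and 64, other filters and normalizations, no trend in eBayes, a replicate block, no _x_at or _s_at probe sets, averaging the probe sets of a gene, and leaving out each array. Leaving out arrays for the medians of lists was chosen after seeing the data, as were the refits of Slamf1.

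The members and lists were chosen with earlier results of these data known. Named were all member probe sets, the 2 genes of smallest p of the pathway and S phase lists, and up to 5 tested neighbours of Cdk6 on each side. The 5 genes most like the brightest Cdk6 probe set by Pearson's r were named too. Genes of those lists outside the rule (Ccna1, Cdkn2a, Cdkn2b and Cdkn2d), Slamf1 and Meis1 were named after their values were seen.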

Additional observations from a re-analysis of the deposited data

How the results depend on the processing

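Under each alternative in which they were tested, 0 probe sets of the 10 genes and 0 genes of the pathway list passed in limma. At an unadjusted p under 0.05 there was 0 or 1 member probe set in every setting. Over the whole table, 41 probe sets passed, 21 higher and 20 lower in B.D(Chr5). The count was 70 with median centring, 26 with eBayes without trend and 23 without _x_at and _s_at probe sets, and it ran from 22 without B.D(Chr5) replicate 1 to 74 without B.D(Chr5) replicate 2 (53 higher and 21 lower in B.D(Chr5)), with 23 and 24 without C57B/L6 replicates 2 and 3; the cause was not tested. With the replicate number as a block it was 25. Same-numbered samples did not deviate together, with correlations of -0.11, -0.20 and 0.19, so the numbers were not taken to pair the samples. Between differently numbered samples the highest were 0.29 (B.D(Chr5) replicate 2 with C57B/L6 replicate 1) and 0.25 (B.D(Chr5) replicate 1 with C57B/L6 replicate 2). The lowest was -0.15. An 18S RNA control read 20010.3 and 13058 on the first of these pairs and 1726 and 2454 on the second. On B.D(Chr5) and C57B/L6 replicate 3 it read 12554 and 6306. Whether arrays shared such variation across the strains was not tested.

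The sign changed in 12 of 135 refits of the brightest probe sets, for Cdk6, Cdk4, Cdk2, Ccnd1, Ccne1 and Cdkn2c. Many of the 135 could not change it. Other filters, eBayes without trend, the replicate block and leaving out _x_at and _s_at probe sets return the same estimate. All 12 changes came with median centring or with 1 array left out. The sign also changed for 4 of 9 genes with their probe sets averaged. With median centring Ccnd1 was -0.0033, and with a gene's probe sets averaged Cdk6 was -0.025, Ccnd1 -0.035, Ccnd3 -0.015 and Cdkn1b 0.034. With 1 array left out in turn, the range was -0.084 to 0.18 for Cdk6, -0.11 to 0.062 for Cdk4, -0.037 to 0.054 for Cdk2, -0.087 to 0.18 for Ccnd1, -0.057 to 0.20 for Ccne1 and -0.040 to 0.011 for Cdkn2c. It was -0.29 to -0.10 for Cdkn1b, with -0.29 without B.D(Chr5) replicate 3 (unadjusted p = 0.0146, adjusted p = 0.899 in limma) and -0.10 without B.D(Chr5) replicate 1. It was 0.058 to 0.23 for Ccnd3, its ends without B.D(Chr5) replicate 1 and C57B/L6 replicate 2, and -0.15 to -0.020 for Ccnd2, its ends without C57B/L6 replicates 2 and 3. Ccnd2 kept its negative sign in all its refits.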
